A study of Mus musculus with 12 samples.

Results

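The H2A.Z peaks of mouse nucleus accumbens after a cocaine history followed by saline were compared with those after the same history followed by cocaine. All peaks of these 2 conditions on chromosomes 1 to 19 were used, 10908 peaks of the 59069 in the whole series: 6238 in the cocaine-saline list (CS, called withdrawal in the labels) and 4670 in the cocaine-cocaine list (CC, called challenge). Both groups share the earlier cocaine treatment and differ in the later one, saline in CS and cocaine in CC, so the comparison asks what a renewed exposure goes with once the history is held the same. Each condition comprised 3 samples and is represented by 1 peak list, and the series also holds a saline-saline list (SS, 24190 peaks on these chromosomes) and a saline-cocaine list (SC, called acute, 22584 peaks). The labels name no allele or transgene and give no dose, interval, age or sex. Chromatin came from tissue that holds many cell types, so fewer cells with a peak and less H2A.Z per cell cannot be told apart. Because no list carries values per sample, no spread between samples exists, no test was possible between CS and CC, and every 95% interval below is an exact binomial (Clopper-Pearson) interval that covers the counting of peaks or genes only.

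The histone variant H2A.Z takes the place of canonical H2A in nucleosomes on either side of the nucleosome-depleted region at gene starts. The SRCAP and TIP60/p400 complexes place it there, and the INO80 complex and the chaperone ANP32E are known for taking it away. In neurons its turnover at promoters has been tied to activity-dependent transcription and memory.

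Promoter sequences show what the CS and CC lists call shared, displaced or held by 1 list. Each line gives the 250 bases before the RefSeq gene start (build GRCm38.p6, 5′ to 3′ on the strand of the gene), with the bases under the named list's peak in capitals, possibly off by 1 base at either edge because the files do not state whether positions count from 0 or 1. Rpl7l1, a relative of the ribosomal protein gene Rpl7 (chr17:46782657-46782906, minus strand), stands for genes with overlapping peaks. There the CC capitals covered 199 bases and contained all 110 CS capitals. Kyat1, a kynurenine aminotransferase gene (chr2:30205848-30206097, minus strand), and Klk8, the gene of the brain serine protease neuropsin (chr7:43797327-43797576, plus strand), stand for genes with a peak in both lists at different positions, and were picked after their values were seen, because both peaks lie mostly inside the window. Drg2, which encodes a GTP-binding protein (chr11:60454341-60454590, plus strand), had a promoter peak only in CS, and Ipo9, the gene of a nuclear import receptor (chr1:135430500-135430749, minus strand), only in CC.
Rpl7l1 with the CS peak: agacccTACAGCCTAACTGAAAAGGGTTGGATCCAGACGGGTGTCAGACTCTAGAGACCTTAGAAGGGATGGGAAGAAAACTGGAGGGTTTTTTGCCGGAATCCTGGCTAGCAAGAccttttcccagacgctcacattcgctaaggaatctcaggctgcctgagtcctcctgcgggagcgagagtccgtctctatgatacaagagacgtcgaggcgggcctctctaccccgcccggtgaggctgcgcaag
Rpl7l1 with the CC peak: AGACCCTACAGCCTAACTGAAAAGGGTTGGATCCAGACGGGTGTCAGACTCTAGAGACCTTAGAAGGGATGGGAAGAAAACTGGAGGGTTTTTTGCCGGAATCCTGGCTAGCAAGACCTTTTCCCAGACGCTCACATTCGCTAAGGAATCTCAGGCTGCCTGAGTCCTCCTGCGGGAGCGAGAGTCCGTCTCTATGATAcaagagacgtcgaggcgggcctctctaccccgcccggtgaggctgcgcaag
Kyat1 with the CS peak: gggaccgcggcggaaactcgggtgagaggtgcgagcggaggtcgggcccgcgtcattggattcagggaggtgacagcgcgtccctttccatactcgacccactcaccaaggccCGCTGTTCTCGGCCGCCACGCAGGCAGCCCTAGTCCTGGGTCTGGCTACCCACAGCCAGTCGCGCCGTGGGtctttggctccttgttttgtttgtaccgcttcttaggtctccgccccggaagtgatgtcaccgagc
Kyat1 with the CC peak: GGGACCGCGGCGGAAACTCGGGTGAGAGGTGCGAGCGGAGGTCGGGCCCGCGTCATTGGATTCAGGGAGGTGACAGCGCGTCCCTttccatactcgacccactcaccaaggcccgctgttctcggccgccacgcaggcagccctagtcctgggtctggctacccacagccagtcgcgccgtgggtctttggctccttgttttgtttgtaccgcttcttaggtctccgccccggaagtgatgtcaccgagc
Klk8 with the CS peak: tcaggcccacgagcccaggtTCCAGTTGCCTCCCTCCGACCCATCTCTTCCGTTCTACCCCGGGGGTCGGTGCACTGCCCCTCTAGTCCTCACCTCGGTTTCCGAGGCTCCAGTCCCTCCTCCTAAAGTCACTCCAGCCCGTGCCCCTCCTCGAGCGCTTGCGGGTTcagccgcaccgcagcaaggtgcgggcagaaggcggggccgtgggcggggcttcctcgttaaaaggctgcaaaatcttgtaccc
Klk8 with the CC peak: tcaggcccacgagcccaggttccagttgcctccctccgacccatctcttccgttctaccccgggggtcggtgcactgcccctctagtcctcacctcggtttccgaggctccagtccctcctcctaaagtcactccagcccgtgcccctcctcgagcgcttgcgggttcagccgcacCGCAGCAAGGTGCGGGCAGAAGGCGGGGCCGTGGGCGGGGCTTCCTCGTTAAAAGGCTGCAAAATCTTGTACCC
Drg2 with the CS peak: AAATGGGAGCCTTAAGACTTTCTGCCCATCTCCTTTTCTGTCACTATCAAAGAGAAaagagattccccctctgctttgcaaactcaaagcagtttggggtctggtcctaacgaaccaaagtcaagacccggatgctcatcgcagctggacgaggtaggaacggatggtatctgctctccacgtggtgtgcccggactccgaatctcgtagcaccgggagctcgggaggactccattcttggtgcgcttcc
Ipo9 with the CC peak: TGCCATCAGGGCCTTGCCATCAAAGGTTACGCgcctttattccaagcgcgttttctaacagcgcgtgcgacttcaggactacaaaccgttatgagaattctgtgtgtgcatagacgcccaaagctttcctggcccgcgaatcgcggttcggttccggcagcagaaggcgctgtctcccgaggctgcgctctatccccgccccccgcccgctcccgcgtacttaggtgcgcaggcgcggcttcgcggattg
In Klk8 the capitals changed sides: the CS peak lay in the upstream part of the window and the CC peak in the part next to the start. In Kyat1 the CC capitals lay farther upstream than those of the CS peak shown, which is 1 of 3 CS peaks there; the others spanned -573 to -430 bp, upstream of the CC peak, and 306 to 468 bp. On either strand, the GC box GGGCGG, the letters that Sp1 family factors bind, was found in the windows of Rpl7l1, Kyat1, Klk8 and Ipo9, and in 33.0% of all 25748 RefSeq windows of this length. The E-box CACGTG was found in the Drg2 window and in 5.95% of all windows, and Kyat1 also held CCAAT (34.1%) and CCGGAAG (7.26%). These matches describe the letters only. A comparison of base composition or motifs between gene groups was void, because only 54.5% of the CS and CC promoter genes had a RefSeq window at a matching start.

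A minority of peaks lay on the same bases in CS and CC. Of the 6238 CS peaks, 1496 (24.0%, 22.9 to 25.1%) overlapped a CC peak by at least 1 bp, and of the 4670 CC peaks, 1490 (31.9%, 30.6 to 33.3%) overlapped a CS peak. Allowing a gap of up to 1000 bp between edges raised the shares to 44.8% of CS and 57.1% of CC peaks. The peaks themselves were short, with a median width of 109 bp for CS peaks and 107 bp for CC peaks, against 737 bp for SS and 730 bp for SC peaks, so a displacement by about 1 peak width ends an overlap. The 2 lists also differ in length, and when the CS list was cut to its 4670 strongest peaks the shares became 25.6% of CS and 25.8% of CC peaks.

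Promoters were less often overlapped than the flanks of genes. A promoter peak is one whose middle lies within 1000 bp of the transcription start site (TSS) of the gene the authors assigned. Of 5091 CS promoter peaks, 1172 (23.0%) overlapped a CC peak, and of 3878 CC promoter peaks, 1167 (30.1%) overlapped a CS peak. In the flanks 1 to 3 kb from a gene the shares were 39.3% of 191 CS peaks and 48.7% of 156 CC peaks. Gene bodies gave 26.1% and 38.9%, and intergenic sequence 24.7% and 37.1%. A small class of very strong peaks stood apart: with the authors' fold enrichment, a ratio over background, of at least 10, 98 of 100 CS peaks and 88 of 88 CC peaks overlapped. Only 12 of these in each list were promoter peaks. Without them in either list 22.6% of CS and 30.2% of CC peaks overlapped. Most of these strong peaks lay outside promoters. The shares by region given above include them and were not recomputed without them.

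Stronger promoter peaks were shared more often. Each list was divided into 5 groups by its own fold enrichment, which ranks peaks within a list and is not on a common scale between lists. In CS the overlapped share of promoter peaks was 19.7%, 18.3%, 21.5%, 25.1% and 31.4% from the weakest to the strongest group. In CC it was 25.4%, 27.6%, 27.9%, 31.0% and 40.3%. The strongest group therefore had the highest share in both lists, and even there most promoter peaks had no overlapping partner.

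**Figure D1:**
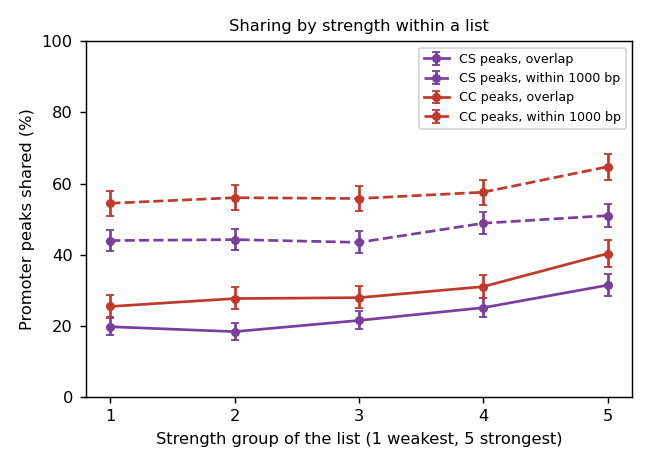
Share of promoter peaks (%) with a partner in the other list, for 5 strength groups of each list (1 weakest, 5 strongest by the authors' fold enrichment); solid lines count overlaps of at least 1 bp, dashed lines count edges within 1000 bp, and bars are 95% exact binomial intervals. The overlapped share is highest in the strongest group, 31.4% of CS and 40.3% of CC peaks.

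Promoter peaks without an overlap fell into those with a neighbour and those without. Among the 3919 CS promoter peaks that no CC peak overlapped, 1180 (30.1%, 28.7 to 31.6%) had a CC peak within 1000 bp. Among the 2711 such CC promoter peaks, 1061 (39.1%, 37.3 to 41.0%) had a CS peak within 1000 bp. The remaining 2739 CS and 1650 CC promoter peaks had no partner within that distance, yet 96.9% and 96.4% of them lay on an SS peak. For overlapping promoter peaks these shares were 97.0% in both lists, so peaks with and without a partner overlapped saline-saline peaks about equally often.

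The share of promoter peaks upstream of the TSS was lower in the CC list than in the CS list. Positions are peak middles relative to the TSS, negative upstream. Upstream peaks made up 48.2% of CS promoter peaks (46.8 to 49.6%) and 43.8% of CC promoter peaks (42.3 to 45.4%). Over all promoter peaks the values were 49.3% and 43.8% at equal list length, 52.4% and 46.9% with −log10 q of at least 5, and 45.9% and 41.6% in a 500 bp window, all chosen after the data were seen. Among overlapping peaks the shares were nearly the same, 50.8% in CS and 50.6% in CC. Among those with no partner within 1000 bp they were 48.3% (46.4 to 50.2%) and 40.4% (38.0 to 42.8%). With 1 list per condition these differences have no replicate error. The typical positions were alike: upstream CS peaks had a median of -276 bp and upstream CC peaks of -296 bp, and downstream peaks had medians of 192 and 184 bp.

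**Figure D2:**
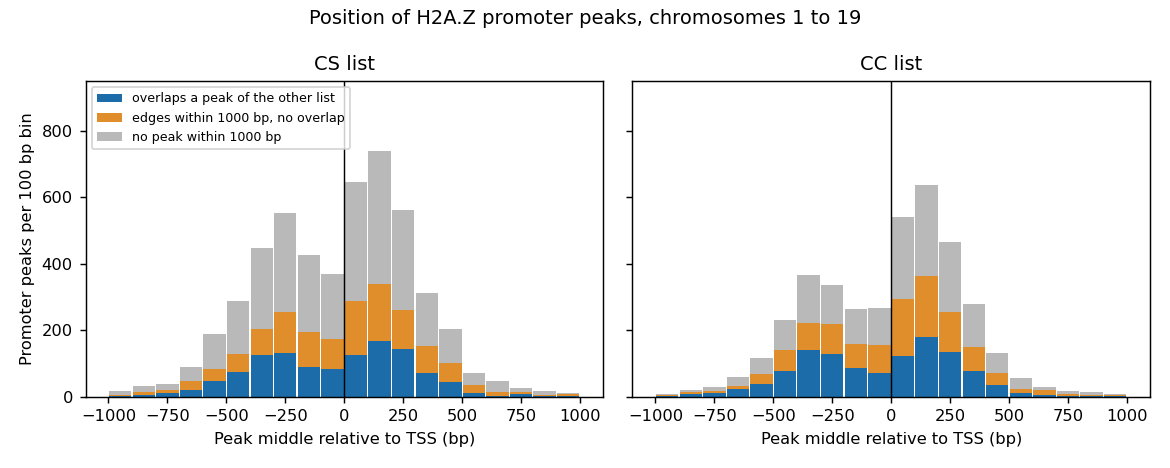
Number of promoter peaks per 100 bp of distance from the TSS in the CS and CC lists, divided into peaks that overlap a peak of the other list, peaks with edges within 1000 bp of one, and peaks with none that near. Both lists show a group on each side of the TSS, and 48.2% of CS but 43.8% of CC peaks lie upstream.

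By gene, the lists shared 1775 promoter genes. CS held 4311 promoter genes and CC 3389, 5925 in either list. The shared genes were 41.2% of the CS genes and 52.4% of the CC genes. Of the genes in either list 30.0% were in both, 42.8% (2536 genes) in CS only and 27.2% (1614 genes) in CC only. The excess of CS only genes follows by arithmetic from the larger number of CS promoter genes, because shared genes count in both lists. At equal list length CS had 3348 and CC 3389 promoter genes, and 1933 genes were in CS only and 1974 in CC only. When both lists were limited to peaks with −log10 q of at least 5, 107 genes remained in both, 16.7% of CS and 20.2% of CC genes at that limit.

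Genes of 1 list only seldom had a nearby peak of the other list under another gene's name. An overlapping CC peak was found at 10 of the 2536 CS only genes and an overlapping CS peak at 8 of the 1614 CC only genes. A peak of the other list lay within 1000 bp at 150 (5.91%) and 134 (8.30%) of them. In the saline-saline list 92.9% of the genes in both, 89.1% of the CS only and 88.7% of the CC only genes had a promoter peak. Protein-coding genes made up 91.8%, 88.2% and 88.8% of the 3 groups. Genes in both carried several peaks more often, 22.0% in CS and 16.5% in CC, against 11.5% of CS only and 8.24% of CC only genes. Their median fold enrichment was 4.78 in CS, where CS only genes had 4.68, and 4.92 in CC, where CC only genes had 4.79.

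Within the shared promoters, many CS and CC peaks occupied different positions. Of the 1775 genes in both lists, 1061 (59.8%, 57.5 to 62.1%) had at least 1 overlapping pair of promoter peaks and 714 (40.2%, 37.9 to 42.5%) had none. In 656 of the 714 (91.9%) the nearest CS and CC peaks both overlapped the same SS peak, as they did in 1043 of the 1061 (98.3%) genes with an overlapping pair. In 436 of the 714 (61.1%) both were assigned to the same transcript, and for the others the distances refer to different start sites, since the authors assigned each peak 1 transcript. When only pairs of the same transcript were counted, 29.9% of 1459 genes had no overlapping pair. A stricter demand, overlap over 50% of both peaks, left 70.6% of the 1775 genes without a matching pair, and a looser one, edges within 100 bp, left 25.9%.

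Displacements on 1 transcript were short, which the selection partly fixes. The nearest pair was taken for each gene, and both middles lie within 1000 bp of the same TSS. For the 436 genes with non-overlapping peaks on 1 transcript, the middles were a median of 209 bp apart (quartiles 149.5 and 313.5 bp), and in 256 (58.7%) the separation was 100 to 250 bp. Over all 714 genes without an overlapping pair the median was 279.25 bp (quartiles 174.5 and 513.125 bp) and the largest separation 180716.5 bp. Overlapping pairs were a median of 53 bp apart. For comparison, neighbouring peaks of 1 transcript within a list had a median separation of 280.75 bp among CS peaks and of 290.5 bp among CC peaks. The direction was balanced: the CC peak lay downstream of the CS peak in 220 of 436 genes (50.5%, 45.7 to 55.2%). In 89 of the 436 (20.4%) the peaks stood on opposite sides of the TSS, so most displaced pairs stayed on 1 side.

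**Figure D3:**
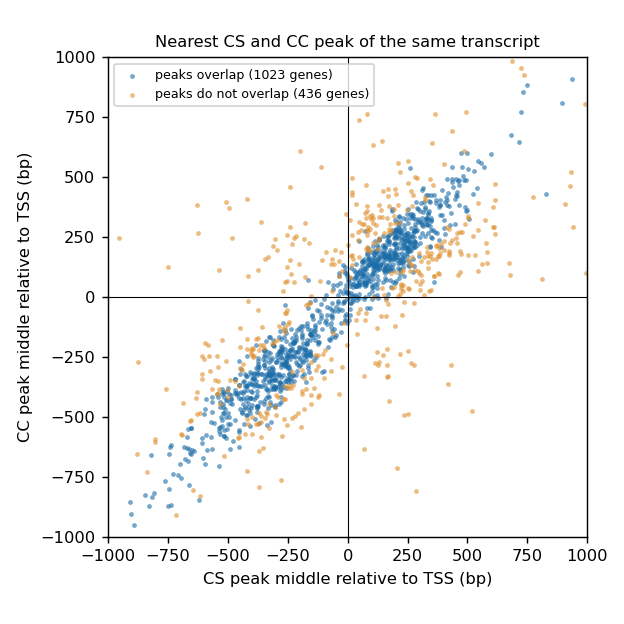
Position of the nearest CS peak (x axis, bp from the TSS) and CC peak (y axis, bp from the TSS) for the 1459 genes with a promoter peak of both lists on the same transcript, 1 point per gene. Overlapping pairs (1023 genes) follow the diagonal; the 436 pairs that do not overlap lie beside it, 89 of them in the quadrants where the peaks are on opposite sides of the TSS.

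The 10 strongest genes with displaced peaks were led by Kat5. Kat5 encodes TIP60, the acetyltransferase of a complex that exchanges H2A.Z. It had a CS peak at -346 bp (fold enrichment 6.36) and CC peaks on either side of it, at -505 bp (5.29) and -69 bp (6.39), all inside 1 SS peak. The other genes on 1 transcript were the mitochondrial Chchd5 (-330 bp in CS, -448 bp in CC), the minor spliceosome gene Rnpc3 (-278 and -762 bp), the complex I assembly factor Ndufaf2 (170 and -28 bp), the synaptic vesicle gene Tprgl (-454 and -585 bp), Dip2a (-384 and -529 bp) and Commd10 (-182 and -469 bp). CC lay farther upstream than CS in each of these single-peak genes, which is not the pattern of all 436. Katna1, a microtubule-severing ATPase, the prefoldin subunit Pfdn5 and the mitochondrial transcription factor Tfam had their CS and CC peaks assigned to different transcripts, with middles 649.5, 538 and 582 bp apart.

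**Figure D4:**
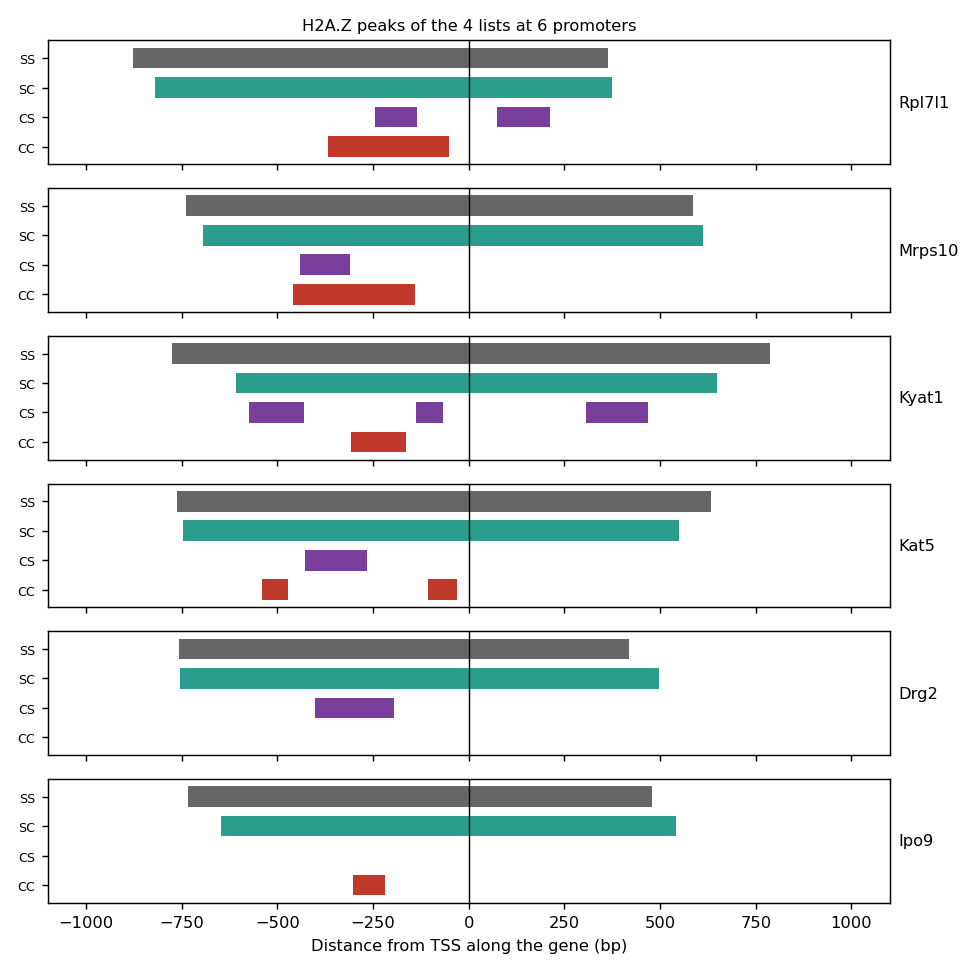
Peaks of the SS, SC, CS and CC lists (bars) along 6 promoters, by distance from the TSS in bp along the gene. SS and SC bars span the TSS at all 6; CS and CC peaks are short bars inside them, overlapping at Rpl7l1 and Mrps10, apart at Kyat1 and Kat5, and present in CS only at Drg2 and in CC only at Ipo9.

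Genes with overlapping promoter peaks were ranked by their strongest promoter peak in each list, and the top 10 were a mixed group. Phf21a, a reader of unmethylated histone H3 in a demethylase complex, had nearly the same peak in both lists, at 597 bp, with a fold enrichment of 8.36 in CS and 9.06 in CC. The small nucleolar RNA gene Snord37 (9.71 in CS, 8.57 in CC), the microRNA genes Mir6236 (8.70 and 8.70) and Mir6546 (6.36 and 6.16) and the membrane protein gene Tmem267 (6.79 and 7.32) also had middles within 20 bp of each other. Rpl7l1 (6.69 and 6.53), the mitochondrial ribosomal protein gene Mrps10 (6.37 and 6.94), Tmem106c (4.61 for the CS peak that overlaps and 6.19 for its other CS peak, 7.24 in CC) and the clathrin interactor Clint1 (6.57 and 6.19) completed the group with Sfi1. Sfi1, a centrosomal protein gene, had 6 CS and 8 CC promoter peaks, up to 14.9 and 12.6. The overlapping pair taken for Sfi1 was weak, with 1.96 in CS and 2.11 in CC. Its values are uncertain because near-identical copies of its sequence can share reads.

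The 10 genes with the strongest CS only peaks had varied functions. Mcmbp, which binds the replicative helicase, had a CS peak of 8.03 at -840 bp. The ubiquitin ligases Rnf14 (7.94, -395 bp) and Ubr1 (7.03, 222 bp), the 5S rRNA transcription factor Gtf3a (7.37, -381 bp) and Ranbp9 (7.08, -541 bp) followed. Ankrd35 had 6.86, and Drg2, the splicing helicase Ddx46, Fam162a and the depalmitoylating enzyme Lypla2 all had 6.69. No CC peak lay within 1000 bp of any of these 10 peaks. Of these genes, 9 also had a promoter peak in SS and SC, Fam162a being the exception.

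The 10 genes with the strongest CC only peaks were as varied. The strongest was Sidt1, a transmembrane protein gene, with a CC peak of 7.47 at -97 bp. It was followed by Zc3h15 (7.42, -229 bp), Ipo9 (7.25, -260 bp), the mitochondrial tRNA-modifying enzyme Cdk5rap1 (6.89, 104 bp), the checkpoint ubiquitin ligase Chfr (6.89, -379 bp) and the tubulin cofactor Tbce (6.89, -303 bp). Lclat1, which remodels cardiolipin, had 6.80, the glycosylation enzyme Alg9 6.70, Fam58b 6.57 and the calcium-binding protein gene Rcn1 6.56. No CS peak lay within 1000 bp of these 10 either. All had an SC promoter peak, and all but Alg9 an SS promoter peak.

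The functions of genes in both, CS only and CC only were described with 39 gene lists, of which 22 had at least 20 genes in either list. The share in both is read against 30.0% for all genes, CS only against 42.8% and CC only against 27.2%. These are counts with no test. CS only genes outnumbered CC only genes in 20 of the 22 lists, and in 14 at equal list length, where 5 lists had more CC only genes and 3 had equal counts.

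Chromatin-modifying enzymes had the largest share in both among the 22 lists. Of the 35 genes of this list, 15 (42.9%) were in both, 12 in CS only and 8 in CC only. These counts include the mitochondrial sirtuin genes Sirt4, in both, and Sirt3, in CS only. Those in both included the histone deacetylases Hdac1 and Hdac2, the Polycomb methyltransferase Ezh2, the maintenance DNA methyltransferase Dnmt1 and the demethylase Kdm4a. Hdac2 had overlapping peaks (5.75 in CS at -566 bp, 4.41 in CC at -438 bp), whereas Hdac1 had its CS peak at 156 bp and its CC peak at -413 bp. CS only held the H3K36 methyltransferase Setd2 (5.02) and the DNA demethylase Tet1 (4.59), and CC only held the Polycomb subunit Eed (4.89) and the demethylase Kdm2b (5.03). Zinc finger genes named Zfp, Zkscan, Zscan or Zbtb were the largest list. Of 227, 91 (40.1%, 33.7 to 46.8%) were in both, 82 in CS only and 54 in CC only. Among RNA polymerase II, general factor and Mediator genes 11 of 36 (30.6%) were in both, close to the share of all genes. Taf7, Taf2 and Med11 were displaced and Polr2k and Ccnc overlapping. The 36 also count Taf1a and Taf1b, which serve RNA polymerase I.

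Genes of the H2A.Z machinery itself were divided among the groups. Of 21 in either list, 6 (28.6%) were in both, 8 in CS only and 7 in CC only. Those in both were Kat5, its complex members Brd8, Dmap1 and Ing3, the INO80 subunit Mcrs1, and Srcap, the ATPase that deposits H2A.Z. Srcap had displaced peaks (4.35 in CS at -404 bp, 5.44 in CC at -222 bp). The TIP60 complex genes Trrap (5.02), Yeats4 (5.02) and Morf4l1 (4.68) and the H2A.Z chaperone gene Anp32e (4.55, -270 bp) were in CS only. The INO80 ATPase gene Ino80 (4.71), the actin-related protein genes Actl6a (5.11) and Actr6 (5.08) and the TIP60 subunit gene Epc2 (5.15) were in CC only. Depositing and removing factors stood in both of the unshared groups.

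At the full list lengths, DNA replication and cell cycle was the 1 list of at least 20 genes in which CC only outnumbered CS only. It held 14 of 35 genes in both (40.0%), 8 in CS only (22.9%) and 13 in CC only (37.1%), and at equal list length 12, 6 and 15. At equal list length CC only outnumbered CS only in 5 of the 22 lists. The CC only share was 45.5% for DNA replication and cell cycle and 59.1% for presynaptic and SNARE genes, where all genes had 37.1%. In both were the clamp loader genes Rfc3 and Rfc4, the primase Prim1 and the helicase subunits Mcm6 and Mcm7. CC only held Mcm5 (5.22), Mcm8 (5.08), the polymerase delta subunit Pold3 (5.32) and Cdc27 (5.80), and CS only held Anapc10 (6.02), Cdc20 (5.32) and Rfc5 (4.68). DNA repair genes followed the whole more closely, with 12 of 36 in both, 15 in CS only, among them Atm (5.69) and Msh6 (5.81), and 9 in CC only, among them Ogg1 (4.71).

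RNA splicing stood at the other end. Of 33 splicing factor genes 8 (24.2%) were in both, 21 (63.6%) in CS only and 4 (12.1%) in CC only. At equal list length 14 of 26 (53.8%) were in CS only, where all genes had 36.3%, and 6 in CC only. The CS only genes included the helicase Ddx46 (6.69), Lsm4 (5.69), the SR proteins Srsf4 (5.69) and Srsf6 (5.35), and Prpf19 (5.35). CC only held Lsm3 (5.08), Srsf12 (4.50), Hnrnph1 (4.55) and Hnrnpf (4.17), and in both were the U1 gene Snrpc, Snrpa1, Sf3b6 and the core factor Prpf8.

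Genes of protein synthesis and folding varied in how much they shared. Translation initiation and elongation factors had 12 of 30 (40.0%) in both, for example Eif4e and Eif2s2. These counts include enzymes that modify the factors, among them Eif2ak1 and Eef1akmt3 in both, Eef2kmt in CS only and Eef2k in CC only. The tRNA synthetases had 8 of 20 (40.0%) in both, among them Iars, Aars and Vars, and 4 in CC only, but at equal list length 5 of 20 in both, below the 26.6% of all genes, and 7 in CC only. Mitochondrial ribosomal proteins also had 40.0% (12 of 30), but 14 were in CS only and 4 in CC only. Cytosolic ribosomal proteins had 8 of 31 (25.8%) in both, 16 in CS only, such as Rpl7 (5.68) and Rps20 (5.22), and 7 in CC only, such as Rpl11 (6.38) and Rplp1 (5.34). Heat shock proteins and chaperonins had 6 of 32 (18.8%, 7.21 to 36.4%) in both. The endoplasmic reticulum chaperone genes Hspa5 (5.35) and Dnajb9 (5.68) were in CS only, and Dnajc6 (5.72), a cofactor for uncoating clathrin vesicles, in CC only. Proteasome subunits had 5 of 20 in both and 11 in CS only, and ubiquitin conjugating and deubiquitinating enzymes were nearly even, with 13 of 38 in both, 14 in CS only and 11 in CC only.

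Among all unshared genes 61.1% (2536 of 4150) were in CS only, the share against which the unshared mitochondrial, cilium and membrane traffic genes are read. The respiratory chain list had 10 of 33 genes (30.3%) in both, 17 in CS only and 6 in CC only, and 10, 16 and 6 of 32 at equal list length. Ndufa8 (6.69) and Cox5a (6.02) were in CS only, Sdha (6.16) in CC only, and Cox7a2 in both with displaced peaks (-267 bp in CS, -426 bp in CC). Mitochondrial and peroxisomal metabolism had 12 of 30 in both, including the malate dehydrogenase Mdh1, 13 in CS only and 5 in CC only, and at equal list length 9 in CS only and 6 in CC only. Rab GTPase genes, which direct vesicles, were 7 in both, 14 in CS only, such as Rab11b (5.35) and Rab6a (5.02), and 3 in CC only, among them Rab14 (5.08). Their CS only share was 58.3% of the 24 Rab genes in either list, where all genes of either list had 42.8%. Of the 53 cilium genes 18 were in both, among them Cep290 (5.02 in CS, 5.03 in CC), 27 in CS only, among them Ift52 (5.69) and Bbs1 (5.35), and 8 in CC only. Vesicle and vacuolar sorting genes were closer to the whole, with 20 of 62 in both, 28 in CS only and 14 in CC only. At equal list length CS only and CC only counted 10 and 4 Rab genes, 20 and 14 cilium genes, and 21 and 20 sorting genes.

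The list of presynaptic and SNARE genes, chosen by name, had the smallest share in both among the lists of at least 20 genes. It holds SNARE genes of other membranes besides those of synaptic release. Of 25, 4 (16.0%, 4.54 to 36.1%) were in both, 11 in CS only and 10 in CC only. That interval also contains 30.0%. At equal list length 1 of 22 (4.55%) was in both, 8 in CS only and 13 in CC only. None of the 4 had overlapping peaks. They were the presynaptic syntaxin Stx1a (361 bp in CS, 87 bp in CC), the endosomal Stx7 (294 and -329 bp), and Stx11 (65 and -242 bp) and Stxbp2 (-174 and -31 bp), known from granule release in immune cells. CS only held the synaptotagmins Syt9 (5.04) and Syt14 (5.95) and the active zone gene Rims2 (4.52). CC only held the vesicle SNARE gene Vamp1 (4.96), the priming factor Unc13b (4.78) and the syntaxins Stx6 (4.98) and Stx18 (5.60) of the Golgi and endoplasmic reticulum. MAPK and CREB signalling matched the whole, with 9 of 30 (30.0%) in both, for example Map3k3 with its middle at -643 bp in both lists and the kinase Map3k7.

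**Figure D5:**
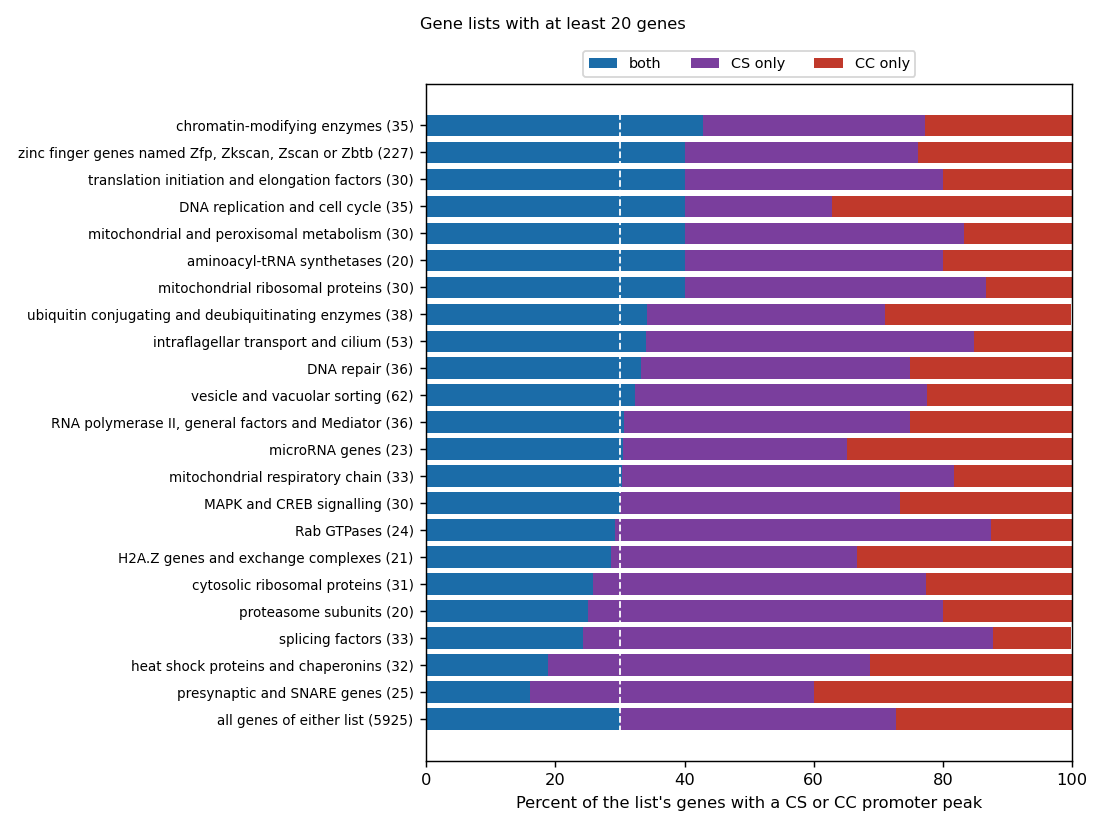
Percent of each list's genes with a CS or CC promoter peak that were in both lists, CS only or CC only, for the 22 lists with at least 20 such genes (number in brackets) and for all 5925 genes at the bottom; the dashed line marks 30.0%. Chromatin-modifying enzymes have the largest share in both (42.9%), presynaptic and SNARE genes the smallest (16.0%), and splicing factors the largest CS only share (63.6%).

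Of the 13281 SS promoter genes, 40.2% (5339) had a CS or CC promoter peak. The lists of neuron markers, channels and receptors had smaller shares, but not they alone. Developmental transcription factors had 4.94% of 81 and histone genes 28.0% of 25. Presynaptic and SNARE genes had 40.7% and MAPK and CREB signalling 41.7%, near the share of all SS promoter genes. Of 31 medium spiny neuron markers, the genes of the main neuron type of the nucleus accumbens, 25 had an SS promoter peak, none a CS peak and 2 a CC peak, Gnal (5.38), the olfactory-type G protein subunit, and Foxp2 (4.08), a share of 8.0%. Of 76 voltage-gated channel genes 57 had an SS promoter peak, 6 were in CS only, including Scn1a (4.67) and Cacna1a (5.02), 3 in CC only and 0 in both, together 15.8% of the SS genes. Glutamate receptor genes numbered 22 in SS, and 13.6% of them recurred in either list, Grin2d (5.20) and Gria4 (4.13) in CS only and Grik1 (4.08) in CC only. Dopamine and cAMP signalling genes numbered 39 in SS, and 7 of them (17.9%) had a CS or CC promoter peak. Of the 8 such genes in either list, 3 were in both, the G protein gene Gnao1 (5.35 in CS, 4.35 in CC), the phosphodiesterase Pde1c and the kinase subunit Prkacb. Ddc, which makes dopamine (4.69), was in CS only, and 4 were in CC only, among them Pde4b (4.78) and Gnai1 (4.58). With 8 genes, these counts are too few to read against the shares of all genes. The glial and vascular lists were small and mixed. None of the 12 astrocyte genes was in CS or CC, 6 of them having an SS promoter peak. A CS or CC promoter peak was found at 2 of 6 oligodendrocyte, 3 of 5 endothelial and 1 of 1 microglial SS promoter genes. Olig1 (5.08) and Cnp (4.01) of the oligodendrocytes were in CC only. The endothelial Esam (5.02) and Kdr (4.69) were in CS only and Ocln (4.77) in CC only. The microglial gene was in both. So few markers cannot check the tissue label in CS and CC, and the part of cell composition in the CS and CC difference was not tested.

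Immediate early genes, which respond within minutes to neuronal activity, were also few. Of 34 such genes 26 had an SS promoter peak, and 4 of these (15.4%, against 40.2% of all SS promoter genes) had one in CS or CC. Fosb (4.95, -120 bp) and Ier3 (3.77) were in CS only, Nr4a2 (4.35) and Egr2 (4.07) in CC only, and 0 in both. Among 12 genes of interest for cocaine and H2A.Z, all 12 had an SS promoter peak. Fosb, whose product accumulates in this region under repeated cocaine, and Anp32e had a CS peak and no CC peak. Drd1, Drd2, Fos, Egr1, Arc, Nr4a1, Bdnf, Penk, Pdyn and Tac1 had neither. Drd1, Bdnf and Pdyn also lacked an SC promoter peak. The Fosb peak spanned chr7:19310123-19310219.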

How the data were processed

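H2A.Z chromatin immunoprecipitation was sequenced in 12 samples, 3 per condition, and 1 annotated peak list per condition was deposited by the authors. Groups come from the sample titles. The submitters' processing notes name mm10 as the build and cutadapt, HISAT, MACS2 and SAMtools as tools. Versions, settings, the control library, depth and any pooling of samples were not given in the sources used here. Total H3 libraries were not analysed here. Per the file headers, each peak has a fold enrichment (a ratio computed by the authors), a q-value (linear scale), a region class, 1 assigned gene and a distance. The deposited distance equalled the peak middle minus the TSS within 1 bp on all annotated peaks. No column belonged to samples outside the series.

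Peaks on chromosomes 1 to 19 were compared with bedtools 2.31.1 and pandas 2.3.3 by overlap of at least 1 bp and by edges within 1000 bp; promoter genes by name with a peak within 1000 bp of the TSS. The overlap step was tested on simulated peaks. For each shared gene the nearest CS and CC pair was taken. Fold enrichment only ranked peaks within a list. In that column 1208 distinct values occur among the CS peaks and 1096 among the CC peaks, so ties are common. Intervals are exact binomial (scipy 1.17.1). Sequences were read from the RefSeq promoter table of GRCm38.p6.

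The gene lists and comparisons were chosen with earlier results of these data known. Named genes are the 10 strongest with overlapping peaks, the 10 strongest with displaced peaks, the 10 strongest of each list alone, up to 6 in both and in each single list per gene list, and 12 genes of interest; pseudogenes, clone names and Gm or Rik names were passed over. A few genes that the rule would name are left out of the text.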

Additional observations from a re-analysis of the deposited data

Results flagged for a closer look

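Peaks outside chromosomes 1 to 19 were set aside above. They made up 2.79% of the CS, 3.25% of the CC, 1.89% of the SS and 2.53% of the SC list, and the classes went different ways: the X chromosome held 0.452% of CS and 0.352% of CC peaks against 1.62% of SS and 2.22% of SC peaks. On the unplaced scaffold JH584304.1 there were 95 CS peaks (1.48% of the 6417 in the full list, 95% interval 1.20 to 1.81%) and 96 CC peaks (1.99% of 4827, 1.61 to 2.42%), against 30 SS peaks (0.122%) and 26 SC peaks (0.112%). On mitochondrial DNA, which has no nucleosomes, there were 14 CS peaks (0.218%) and 14 CC peaks (0.290%), against 1 SS peak and 6 SC peaks. These counts were flagged because they exceed those of the saline-saline list in sequence outside the comparison, and each is 1 list without replicate error.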

How the results depend on the processing

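Overlap of peaks depended on the rule for sharing. The share of CS peaks overlapped by CC peaks, 24.0%, was 11.2% with reciprocal overlap of 50%, 44.8% with edges within 1000 bp, 28.7% with −log10 q of at least 5, 25.6% at equal list length, 25.2% on all chromosomes and, chosen after the data were seen, 22.6% without peaks of at least 10-fold enrichment. The share of CC peaks, 31.9%, was 15.0%, 57.1%, 34.1%, 25.8%, 33.4% and 30.2% under the same settings. The genes in both (1775), CS only (2536) and CC only (1614) fell to 107, 534 and 422 with −log10 q of at least 5 and stayed within 1.5 times under the other 6 settings. The share of CS promoter genes also in CC, 41.2%, was 16.7% at that q limit and 39.7% in a 500 bp window; the share of CC genes also in CS, 52.4%, was 20.2% and 49.8%, and 41.8% at equal list length. Genes in both without an overlapping pair, 40.2%, were 70.6% with reciprocal overlap of 50%, 25.9% with edges within 100 bp, 26.2% with −log10 q of at least 5 and, chosen after the data were seen, 29.9% of same-transcript pairs. The list settings and window changed which peaks or genes entered; the cause beyond that was not tested. Of 66 counts over the 22 larger gene lists, 4 moved by over 1.5 times at equal list length and 0 when an overlapping peak of any name counted as shared. No paired analysis was possible because the lists carry no values per sample, and no replicate could be left out for the same reason. The q-values reach 0.0510 in CS and 0.0625 in CC, so the weakest peaks of both lists stand near the calling limit, and depth per sample, which limits how many peaks a list can hold, was not analysed here.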
